A study of Caenorhabditis elegans with 8 samples.

Results

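The cytosolic ribosomal protein genes of Caenorhabditis elegans were taken as those with a WormBase symbol of rpl, rps or rla followed by a number. These stand for the large subunit, the small subunit and the stalk of the large subunit. Genes of ribosomal proteins under other names, such as ubq-2 and ubl-1 below, are not in the set. The rule used names alone, and it found 81 of the 46748 genes in the count table, with 47 rpl, 31 rps and 3 rla genes. Of these, 80 passed the filter on low counts and were tested. The gene that failed was rpl-42 (chromosome II, 11092713 to 11094022, plus strand), which had 1, 2 and 1 reads in the hlh-2 RNAi-labelled libraries, 2, 2 and 0 in the lin-32 RNAi-labelled ones, and 1 and 1 in those labelled L4440.

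A ribosome joins a small subunit, which reads the messenger RNA, to a large subunit, which forms the peptide bonds. Growing cells make their many proteins in near-equal numbers, and in animals the genes are expressed in almost every tissue. The stalk is a flexible arm of the large subunit that brings the GTPase elongation factors to the ribosome. Its base protein P0 (rla-0) holds pairs of the acidic proteins P1 (rla-1) and P2 (rla-2), which, unlike most ribosomal proteins, can exchange on assembled ribosomes in yeast and mammals.

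RNA came from whole nematodes of the wild-type strain N2 in 8 libraries. Of these, 3 were from worms fed an RNAi plasmid against hlh-2, which encodes a class I basic helix-loop-helix transcription factor (an E protein), and 3 from worms fed one against lin-32, an atonal-type proneural factor. The control was the empty feeding plasmid L4440, with 2 libraries. All worms were therefore on bacteria carrying an RNAi vector, and the labels give no stage, age or number of worms.

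Depth ran from 22380739 to 34814808 reads assigned to genes per library. Nothing in the labels ties replicates to separate worm cultures, so p-values reflect only how far these libraries spread, which may be technical spread. The targeted transcripts went partly against the labels. hlh-2 averaged 50.6 ± 2.87 CPM (reads scaled to the same total in each library by TMM, ± SD) in the 3 hlh-2 RNAi-labelled libraries and 22.1 ± 6.16 CPM in the 3 labelled lin-32 RNAi, against 49.8 ± 1.16 CPM in the 2 labelled L4440. Transcripts of lin-32 averaged 2.62 ± 0.69 CPM in libraries labelled hlh-2 RNAi and 0.81 ± 0.15 CPM in the lin-32 RNAi-labelled ones, against 1.46 ± 0.057 CPM in those labelled L4440. By edgeR's quasi-likelihood test hlh-2 was lower in libraries labelled lin-32 RNAi than in L4440 (log2 fold change -1.16 ± 0.15, SE, adjusted p = 0.0041) and did not differ detectably between hlh-2 RNAi and L4440 (0.025, adjusted p = 0.990). Without L4440 replicate 2 the first of these had an edgeR adjusted p of 0.068. Transcripts of lin-32 did not differ detectably between lin-32 RNAi and L4440 (-0.86, edgeR adjusted p = 0.233, from 23 to 39 reads per library). The same held for hlh-2 RNAi and L4440 (0.85, edgeR adjusted p = 0.456). Between the treated groups both transcripts were higher in hlh-2 RNAi, hlh-2 by 1.19 (edgeR adjusted p = 0.0017) and lin-32 by 1.71 (edgeR adjusted p = 0.0067). Group names below are therefore those of the labels, and every direction rests on them. In whole animals, fewer cells of a type and less RNA per cell cannot be told apart.

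Ribosomal protein genes were among the most abundant messages in every library. Per kilobase of merged exons, the 80 tested members had a median of 2165 CPM over all libraries, against 8.11 CPM for the 14170 tested genes with a known length. Of the 100 highest tested genes on this scale 67 were members, and of the 200 highest 75 were. The members held 9.11%, 9.42% and 9.35% of all counts in the hlh-2 RNAi-labelled libraries, and 9.45%, 9.54% and 9.51% in the ones labelled lin-32 RNAi, against 9.93% and 9.59% in the L4440 libraries. Each of these shares has a 95% Wilson interval of at most 0.0124 percentage points to either side, which covers counting error only. The shares of the libraries labelled hlh-2 RNAi all lay below those of lin-32 RNAi, and the L4440 libraries were the highest.

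Levels within the set were narrow for most members. Per kilobase, 72 of the 80 lay between 1000 and 4000 CPM. The highest was rpl-41.2 (chromosome I, 4790292 to 4790642), named for a very small protein of the large subunit, with 4991 CPM per kilobase. Next came rps-25 with 3880 CPM, rps-23, whose protein lines the decoding centre, with 3553 CPM, and rpl-10, whose protein joins the large subunit late in its assembly, with 3349 CPM per kilobase. The lowest tested members were rpl-24.2 with 95.6 CPM per kilobase, rpl-25.1 with 169.8 CPM, rpl-11.2 with 261 CPM and rpl-41.1 with 374.5 CPM. The highest member stood 52.2-fold above the lowest. In the stalk, rla-0 had 2669 CPM per kilobase, rla-1 had 1621 CPM and rla-2 had 565 CPM, so the base protein's message was above those of the proteins it binds.

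**Figure D1:**
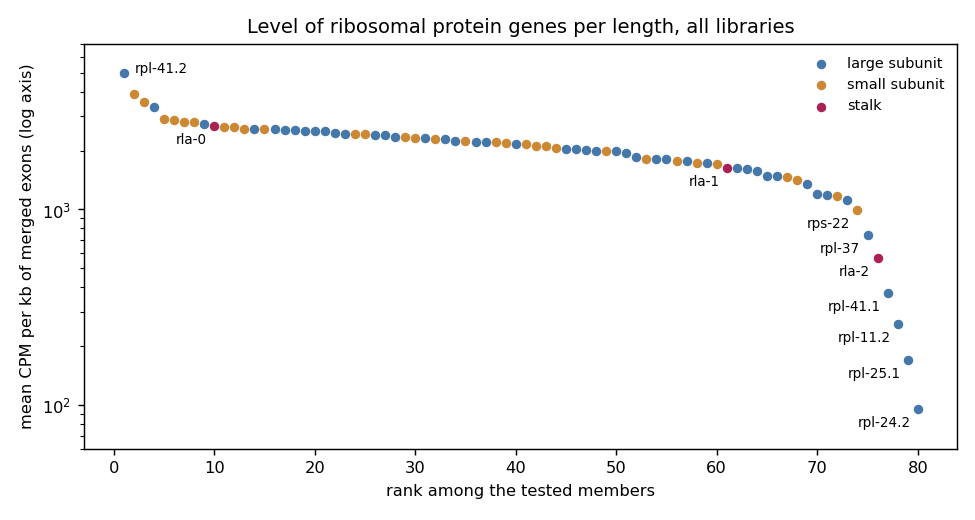
Mean CPM per kilobase of merged exons over all 8 libraries (log axis) for the 80 tested ribosomal protein genes, ranked from highest to lowest and coloured by subunit. Most members form a plateau between 1000 and 4000 CPM per kilobase. The lower members of the numbered pairs, rla-2, rpl-37 and, narrowly, rps-22 lie below it, and rpl-41.2 lies above it.

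The low end of the range held 1 gene of each numbered pair. rpl-11.2 stood at 0.111 ± 0.0030 of rpl-11.1 per kilobase in the hlh-2 RNAi-labelled libraries and at 0.120 ± 0.0058 in the lin-32 RNAi-labelled ones, against 0.111 ± 0.0061 in L4440 libraries (SD). rpl-25.1 stood at 0.0732 ± 0.0020 of rpl-25.2 in hlh-2 RNAi and at 0.0803 ± 0.0040 in lin-32 RNAi, against 0.0765 ± 0.0059 in L4440. rpl-24.2 stood at 0.0394 of rpl-24.1 in hlh-2 RNAi and at 0.0374 in lin-32 RNAi, against 0.0372 in L4440, and rpl-41.1 at 0.0741 of its neighbour rpl-41.2 in hlh-2 RNAi and at 0.0755 in lin-32 RNAi, against 0.0765 in L4440. In each pair the same gene was the higher in all 3 groups. Pairs were taken from the symbols alone, and whether both genes of a pair encode the same protein was not tested. The sources used here do not give how the authors' counting treated reads shared by similar genes, so these ratios are uncertain.

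The members were spread unevenly over the chromosomes. Chromosome I carried 25 of the 81 members (30.9%), against 16.01% of the 13490 tested protein-coding genes. The X chromosome carried 2 members (2.47%), against 14.9% of tested protein-coding genes. Those on X were rpl-11.2 (2241738 to 2242618, minus strand) and rpl-25.1 (4715178 to 4715796, plus strand), the lower-level genes of their pairs.

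In libraries labelled hlh-2 RNAi, ribosomal protein messages lay slightly below those of L4440 libraries across both subunits, and no single gene passed the test. The median log2 fold change of the 80 members was -0.096, a change of -6.44%, against -0.00068 for all 14272 genes tested. The members ran from -0.19 to 0.0080, and 79 of the 80 were below 0, against 50.3% of all genes tested. None of the members passed an adjusted p of 0.05 in edgeR's quasi-likelihood test, where 0.203% of all genes did, 0.049% as higher and 0.154% as lower. Those at an unadjusted p under 0.05 numbered 38, all lower, against 6.78% of all genes tested in either direction, 3.64% lower and 3.14% higher. DESeq2 called 4 members lower (rpl-14, rpl-31, rpl-35 and rpl-6) and limma-voom called 0. The share over all genes with an adjusted p in DESeq2 was 0.376%.

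The large and small subunits had like shifts. The 46 tested rpl genes had a median log2 fold change of -0.093, with all 46 below 0, and the 31 rps genes one of -0.10, with 30 below 0. In 45 of the 80 members every library labelled hlh-2 RNAi was below both L4440 libraries, against 12.2% of all genes tested, and in 0 members was the order the reverse, against 11.9%. The ratio of small-subunit to large-subunit counts was 0.780, 0.789 and 0.781 in the hlh-2 RNAi-labelled libraries, and 0.787, 0.789 and 0.786 in the ones labelled lin-32 RNAi, against 0.792 and 0.774 in the L4440 libraries. Both treated groups lay within the gap between the 2 controls.

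**Figure D2:**
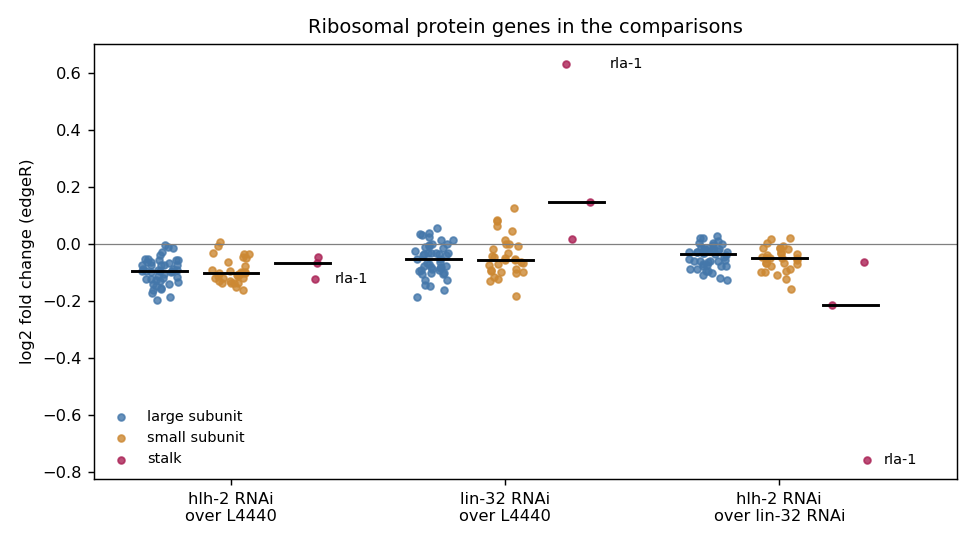
Log2 fold change (edgeR) of each of the 80 tested ribosomal protein genes in the 3 comparisons, coloured by subunit, with a black bar at the median of each class. Nearly all points for hlh-2 RNAi over L4440 lie between -0.19 and 0, while rla-1 stands alone at 0.63 for lin-32 RNAi over L4440 and at -0.75 for hlh-2 RNAi over lin-32 RNAi.

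The members with the smallest p in this comparison all belonged to the large subunit. The message of rpl-31 (chromosome I, 13652949 to 13653704), whose protein lies near the mouth of the peptide exit tunnel, stood at 750, 786 and 778 CPM in libraries labelled hlh-2 RNAi, against 914 and 837 CPM in L4440 libraries. The groups did not overlap, and the log2 fold change was -0.18 ± 0.045 (SE, edgeR adjusted p = 0.273). That of rpl-35, whose protein also sits at the tunnel exit, stood at 771, 796 and 806 CPM in hlh-2 RNAi, against 886 and 871 CPM in L4440 (log2 fold change -0.15 ± 0.037, edgeR adjusted p = 0.275).

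The proteins of rpl-6 and rpl-14 are neighbours on the outer face of the large subunit. rpl-6 (chromosome III, 7208447 to 7209789) had 1789, 1812 and 1916 CPM in libraries labelled hlh-2 RNAi, against 2149 and 2057 CPM in L4440 libraries, and the largest negative log2 fold change of the set, -0.19 ± 0.052 (edgeR adjusted p = 0.387). For rpl-14 the values were 971, 997 and 1013 CPM in hlh-2 RNAi, against 1166 and 1074 CPM in L4440 (log2 fold change -0.17 ± 0.043, edgeR adjusted p = 0.282). Neither pair of groups overlapped. rpl-7A had 909, 910 and 939 CPM in hlh-2 RNAi, against 1015 and 1018 CPM in L4440, with a log2 fold change of -0.14 ± 0.042 (edgeR adjusted p = 0.456).

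At the other end stood rps-20, whose protein belongs to the head of the small subunit. It had 1255, 1332 and 1269 CPM in libraries labelled hlh-2 RNAi, against 1313 and 1244 CPM in L4440 libraries, and the groups overlapped (log2 fold change 0.0080). The log2 fold changes of rpl-38 and of rps-2, whose protein lies at the messenger RNA entry channel, were -0.0011 and -0.0055. All 3 of these signs turned under other scalings or without single libraries.

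The size of the shift depended on single libraries. Set against the mean log2 CPM of the L4440 libraries, the median member stood at -0.136, -0.080 and -0.081 in the hlh-2 RNAi-labelled libraries, with 1, 14 and 4 of the 80 members above 0. The L4440 libraries themselves differed, with the median member at 0.028 in replicate 1 and -0.028 in replicate 2, and all 31 small-subunit genes were higher in replicate 1. Without L4440 replicate 1 the members at an unadjusted p under 0.05 numbered 10, and without hlh-2 RNAi replicate 1 they numbered 17. The median log2 fold change stayed between -0.12 and -0.066 when each library was left out in turn. The median over all genes tested was within -0.0015 to 0.0050 in every library.

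**Figure D3:**
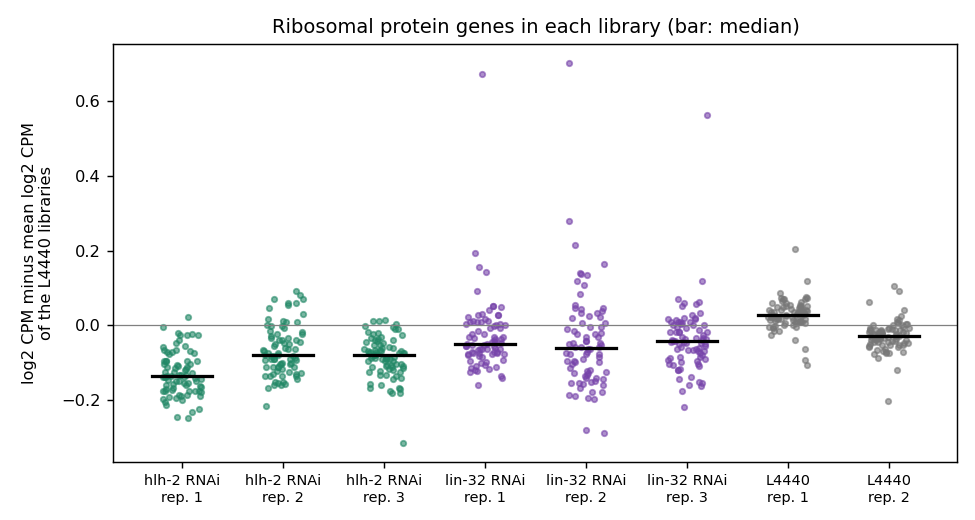
Log2 CPM of each of the 80 tested ribosomal protein genes in each library, minus its mean log2 CPM over the L4440 libraries, with a black bar at the median. The libraries labelled hlh-2 RNAi lie lowest (medians -0.136, -0.080 and -0.081), those labelled lin-32 RNAi next, and the 2 controls lie to either side of 0.

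In libraries labelled lin-32 RNAi, the subunit genes lay less far below L4440, and the stalk gene rla-1 rose. The median log2 fold change of the 80 members was -0.051, a change of -3.49%, against 0.0015 for all genes tested, and lay between -0.079 without L4440 replicate 2 and -0.023 without L4440 replicate 1. Of the members 60 were below 0, against 49.4% of all genes tested, and 20 were above. Past an adjusted p of 0.05 in edgeR's quasi-likelihood test were 1 member, rla-1, which was higher, and 0 lower, against 0.743% of all genes tested in either direction, 0.21% higher and 0.533% lower. Those at an unadjusted p under 0.05 were 15 lower members, against 6.82% of all genes tested, and 1 higher, against 5.77%. Without L4440 replicate 1 the members under that p, in either direction, numbered 5 in place of 16, against 12.6% of all genes tested with every library. The comparison uses the same L4440 libraries as that of hlh-2 RNAi.

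Both subunits again had like medians, -0.051 for the 46 rpl genes (37 below 0) and -0.054 for the 31 rps genes (23 below 0). In 29 members all libraries labelled lin-32 RNAi were below both L4440 libraries, against 15.4% of all genes tested, and in 2 members, rla-1 and rps-26, they were all above, against 14.4%. The small-subunit gene rps-26, named after its values were seen, had a log2 fold change of 0.063 (edgeR adjusted p = 0.629). Shorter messages were more often above 0. Of the 27 shortest members (236 to 475 bases of exon) 10 were above 0, and of the 27 longest (664 to 1456 bases) 4 were. Across the 80 genes the log2 fold change had a Spearman correlation of -0.261 with exon length. With mean CPM, not divided by length, it was -0.416. Both describe genes that share the same libraries.

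Several large-subunit genes with low values in hlh-2 RNAi had them here too, without passing edgeR's test. DESeq2 called rpl-6 (adjusted p = 0.025) and rpl-31 (adjusted p = 0.038) lower and rla-1 higher, 3 members, against 1.22% of all genes to which it gave an adjusted p. The message of rpl-6 stood at 1933, 1732 and 1892 CPM in libraries labelled lin-32 RNAi, against 2149 and 2057 CPM in L4440 libraries (log2 fold change -0.18 ± 0.052, edgeR adjusted p = 0.155). That of rpl-31 stood at 796, 763 and 795 CPM in lin-32 RNAi, against 914 and 837 CPM in L4440 (-0.16 ± 0.045, edgeR adjusted p = 0.151). For rpl-14 the values were 1027, 1019 and 1000 CPM in lin-32 RNAi, against 1166 and 1074 CPM in L4440 (-0.14 ± 0.043, edgeR adjusted p = 0.181). In all 3 genes the groups did not overlap, and the control libraries are those that also gave the hlh-2 RNAi values.

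Another large-subunit gene, rpl-30, had 724, 680 and 677 CPM in libraries labelled lin-32 RNAi, against 755 and 759 CPM in L4440 libraries (log2 fold change -0.13 ± 0.040, edgeR adjusted p = 0.20). In the small subunit, rps-7 had 1919, 1755 and 1988 CPM in lin-32 RNAi, against 2174 and 2110 CPM in L4440 (-0.18 ± 0.059, edgeR adjusted p = 0.215). The small-subunit gene with the highest fold change was rps-29, which encodes a zinc-binding protein of the head. It had 499, 520 and 448.5 CPM in lin-32 RNAi, against 452 and 444 CPM in L4440, and the groups overlapped at the third lin-32 RNAi library (0.13 ± 0.071, edgeR adjusted p = 0.499).

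The stalk gene rla-1 (WBGene00004409, chromosome I, 2069086 to 2069575, minus strand) stood apart from all other members. It had 582, 609 and 484 CPM in the hlh-2 RNAi-labelled libraries and 958.5, 979 and 889.5 CPM in the lin-32 RNAi-labelled ones, against 693 and 523 CPM in the L4440 libraries. All 3 lin-32 RNAi libraries were above the other 5, whose values overlapped between hlh-2 RNAi and L4440. The gene rose 1.55-fold in lin-32 RNAi over L4440 (log2 fold change 0.63 ± 0.11, edgeR adjusted p = 0.018). Against lin-32 RNAi, hlh-2 RNAi libraries had 0.593 of the level (log2 fold change -0.75 ± 0.096, edgeR adjusted p = 0.0042). For hlh-2 RNAi over L4440 the log2 fold change was -0.12 ± 0.11 (edgeR adjusted p = 0.899).

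**Figure D4:**
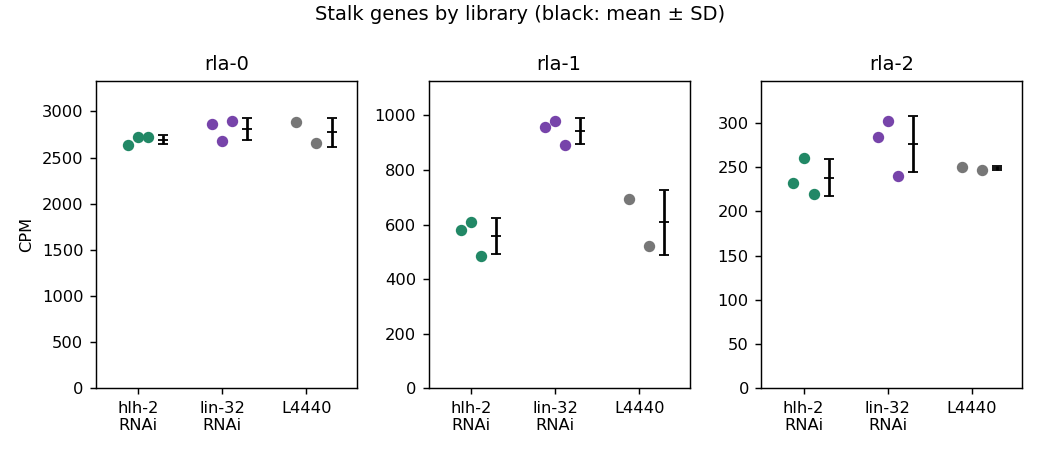
CPM of the stalk genes rla-0, rla-1 and rla-2 in each library, with the mean ± SD of each group beside the points (3, 3 and 2 libraries). For rla-1 the libraries labelled lin-32 RNAi lie between 889.5 and 979 CPM, above the 5 others, which lie between 484 and 693 CPM.

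The call of rla-1 against L4440 rested on single libraries. It was lost without L4440 replicate 2 (log2 fold change 0.45, with 1 control library left) and without lin-32 RNAi replicate 2 (0.61, edgeR adjusted p = 0.068). With DESeq2 and all libraries the adjusted p was 0.0088. The L4440 libraries gave rla-1 the widest spread of any tested member, with a coefficient of variation of 19.8%, against a median of 3.17% for the members in that group. The difference between hlh-2 RNAi and lin-32 RNAi kept its call in all 18 alternatives, with log2 fold changes of -0.82 to -0.66 and adjusted p of at most 0.035. With DESeq2 the adjusted p was 7.3e-05. The fold change of this comparison does not use the L4440 levels, although those libraries enter the estimate of the spread.

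The other stalk genes did not pass edgeR's test with the filter on low counts and group as the only term. rla-2 (chromosome IV, 13369425 to 13370285, minus strand) had 232.5, 260.8 and 219.9 CPM in the hlh-2 RNAi-labelled libraries and 284.4, 301.9 and 240.4 CPM in the lin-32 RNAi-labelled ones, against 250.2 and 247.0 CPM in the L4440 libraries. Its groups overlapped, and its log2 fold changes were -0.064 for hlh-2 RNAi over L4440, 0.15 ± 0.084 for lin-32 RNAi over L4440 (edgeR adjusted p = 0.504) and -0.21 ± 0.074 for hlh-2 RNAi over lin-32 RNAi (edgeR adjusted p = 0.438). In each numbered pair the hlh-2 RNAi library was below the lin-32 RNAi library. With the replicate number as a block in the 6 treated libraries rla-2 passed (-0.21, edgeR adjusted p = 0.0014). That pairing was chosen from these same counts and is not in the labels. The alternatives include the fit with no filter, which called many more of all genes. Across them the lowest adjusted p of rla-2 was 2.3e-06 for hlh-2 RNAi over lin-32 RNAi. For lin-32 RNAi over L4440 the lowest was 0.0134. rla-0 (chromosome I, 10567894 to 10569017, plus strand) averaged 2692 ± 48.3 CPM in hlh-2 RNAi and 2812 ± 117 CPM in lin-32 RNAi, against 2773 ± 160 CPM in L4440, with log2 fold changes of -0.043 and 0.020 over L4440.

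Within each library the balance of the stalk messages differed accordingly. Per kilobase, rla-1 stood at 0.517, 0.525 and 0.416 of rla-0 in the hlh-2 RNAi-labelled libraries, and at 0.784, 0.856 and 0.720 in the ones labelled lin-32 RNAi, against 0.562 and 0.460 in the L4440 libraries. Its ratio to rla-2 was 2.56, 2.39 and 2.25 in hlh-2 RNAi and 3.45, 3.32 and 3.78 in lin-32 RNAi, against 2.83 and 2.17 in L4440. In both ratios the lin-32 RNAi libraries were above all others. rla-2 stood at 0.202, 0.220 and 0.185 of rla-0 in hlh-2 RNAi and at 0.227, 0.258 and 0.190 in lin-32 RNAi, against 0.199 and 0.213 in L4440, with groups that overlapped.

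None of the genes around rla-1 passed the test. On the annotation of build WBcel235 its nearest neighbours are Y37E3.1, rpb-10 (an RNA polymerase subunit) and moag-4 on the left and Y37E3.8, phb-1 (a prohibitin) and eif-2alpha (a translation initiation factor subunit) on the right. Over the 3 comparisons their log2 fold changes lay between -0.13 and 0.072. The closest, Y37E3.8 on the same strand, ends 106 bases from rla-1 and had between 1310 and 1479 CPM in all libraries. The gene arl-13 overlaps the exons of rla-1 by 13 bases on the opposite strand. It had 128 reads over all libraries, against 172426 for rla-1, and the kit does not mark strand. Exons of 15 members overlap those of another gene, by at most 110 bases, and that largest case (rps-20) involves a miRNA gene with 0 reads.

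**Figure D5:**
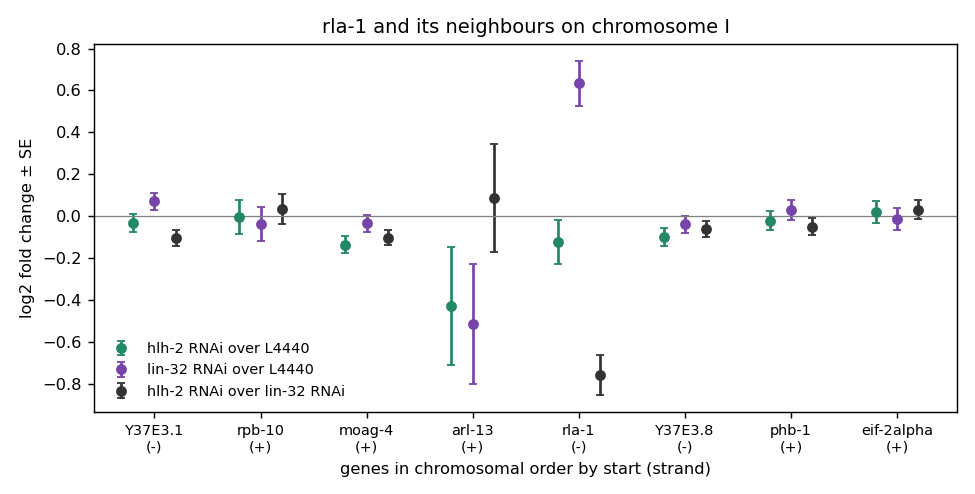
Log2 fold change ± SE (edgeR) of rla-1 and the genes next to it on chromosome I, in order of their starts, in the 3 comparisons, with the strand under each name. Only rla-1 passed an adjusted p of 0.05, at 0.63 for lin-32 RNAi over L4440 and -0.75 for hlh-2 RNAi over lin-32 RNAi, and arl-13 has wide errors at 0.45 to 0.73 CPM.

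Set against each other, the hlh-2 RNAi-labelled and lin-32 RNAi-labelled libraries differed little in the subunit genes and most in rla-1. The median log2 fold change of the 80 members was -0.047, a difference of -3.18% in hlh-2 RNAi, against -0.0015 for all genes tested, with 70 members below 0, against 50.7% of all genes tested. It was -0.032 for rpl and -0.047 for rps genes, and moved to -0.017 over all members without hlh-2 RNAi replicate 1. Only rla-1 passed an adjusted p of 0.05 in edgeR's quasi-likelihood test, where 0.406% of all genes did, 0.294% as higher and 0.112% as lower. Those at an unadjusted p under 0.05 were 17 lower members and 0 higher, against 3.66% lower, 4.31% higher and 7.97% in either direction of all genes tested. That count was 6 without hlh-2 RNAi replicate 1, 6 without hlh-2 RNAi replicate 3 and 10 without lin-32 RNAi replicate 2.

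In 21 members every library labelled hlh-2 RNAi was below every one labelled lin-32 RNAi, against 6.87% of all genes tested, and in 0 members was the order the reverse, against 6.81%. After rla-1 the smallest p was that of rpl-28, a large-subunit gene with 520, 500.0 and 506 CPM in hlh-2 RNAi, against 567, 538 and 552.5 CPM in lin-32 RNAi (log2 fold change -0.12 ± 0.036, edgeR adjusted p = 0.306). rpl-25.1 had 76.9, 81.5 and 78.3 CPM in hlh-2 RNAi, against 83.4, 86.6 and 88.2 CPM in lin-32 RNAi (-0.13 ± 0.043, edgeR adjusted p = 0.412). rps-30, whose protein is made as a fusion with a ubiquitin-like domain, had 955, 954 and 968.5 CPM in hlh-2 RNAi, against 1044, 1006 and 1022 CPM in lin-32 RNAi (-0.094 ± 0.035, edgeR adjusted p = 0.507). None of these 3 genes had overlapping libraries, and none passed. The highest fold changes were small, at 0.029 for rpl-41.2, 0.024 for rps-7 and 0.022 for rpl-24.2 on the log2 scale.

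The replicate numbers were taken to pair these 6 libraries from correlations in these same counts, since the labels give no pairing. P-values from a fit with the number as a block therefore rest on a pairing chosen from the data they test. In such a fit of these 6 libraries 4 of the 80 members passed an adjusted p of 0.05 in edgeR, against 2.79% of the 13848 genes in that fit. All 4 were lower in hlh-2 RNAi. They were rla-1 (log2 fold change -0.76, adjusted p = 2.2e-10), rla-2 (-0.21, adjusted p = 0.0014), rps-29 (-0.16, adjusted p = 0.017) and rpl-25.1 (-0.12, adjusted p = 0.048). In rps-29 the values were 455, 467 and 395 CPM in hlh-2 RNAi, against 499, 520 and 448.5 CPM in lin-32 RNAi, so that each numbered pair differed in the same direction while the groups overlapped.

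Ribosomal protein genes varied less between replicates than the median gene. Their median coefficient of variation was 3.21% in hlh-2 RNAi and 2.89% in lin-32 RNAi, against 3.17% in L4440, while that of all genes tested was 6.24% in hlh-2 RNAi and 6.43% in lin-32 RNAi, against 5.06% in L4440. The most variable member was rla-1 in hlh-2 RNAi (11.8%) and rpl-39 in lin-32 RNAi (12.7%), against rla-1 in L4440 (19.8%). High counts lower the counting part of this spread, and the comparison with all genes was not matched for level.

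Genes that make or work with the ribosome were read from lists. The ubiquitin fusion genes of the ribosome, ubq-2 (ubiquitin joined to a large-subunit protein) and ubl-1 (a ubiquitin-like domain joined to a small-subunit protein), had log2 fold changes of -0.083 and -0.069 for hlh-2 RNAi over L4440 and of -0.054 and -0.037 for lin-32 RNAi over L4440, and neither passed. Of 40 translation initiation and elongation factor genes 0 passed in any comparison, with medians of -0.027 for hlh-2 RNAi and -0.024 for lin-32 RNAi over L4440. At an unadjusted p under 0.05 there were 3 and 2 of them, all lower. Of all genes tested 6.78% and 12.6% had such a p in either direction, 3.64% and 6.82% as lower. The 69 mitochondrial ribosomal protein genes, whose ribosomes are separate from the cytosolic ones, had 0 past the threshold. Their medians were -0.0061 for hlh-2 RNAi and -0.0018 for lin-32 RNAi over L4440. In each comparison 3 of them, in either direction, had an unadjusted p under 0.05, against the same 6.78% and 12.6%.

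The 31 aminoacyl-tRNA synthetase genes, which load amino acids on tRNAs, had medians of 0.0098 for hlh-2 RNAi and -0.011 for lin-32 RNAi over L4440. None passed, and 1 had an unadjusted p under 0.05 in each, against 6.78% and 12.6% of all genes tested. The 22 regulators of growth in the TOR, insulin and Myc pathways had medians of 0.039 for hlh-2 RNAi and 0.00027 for lin-32 RNAi over L4440. In each, 0 were past the threshold and 1 had an unadjusted p under 0.05, against the same shares of all genes. Of 22 tested ribosome biogenesis genes 2 fell in lin-32 RNAi over L4440, against 0.743% of all genes tested that passed, and the list's median was -0.086. Counting these, 10 had an unadjusted p under 0.05 there, all lower, against 6.82% of all genes tested as lower and 12.6% in either direction. For hlh-2 RNAi over L4440 the list's median was -0.037, 0 passed, and 7 lower and 1 higher had an unadjusted p under 0.05, against 6.78% of all genes tested. For hlh-2 RNAi over lin-32 RNAi it was 0.066, with 20 of the 22 above 0, whereas the ribosomal protein genes had a median of -0.047. In that comparison 0 were past the threshold and 5 were higher at an unadjusted p under 0.05, against 4.31% of all genes tested.

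The 2 that fell were fib-1 and toe-1. fib-1, which encodes the nucleolar RNA methyltransferase fibrillarin, had 476, 451 and 481 CPM in libraries labelled lin-32 RNAi, against 589 and 543 CPM in L4440 libraries (log2 fold change -0.27 ± 0.043, edgeR adjusted p = 0.012). Its call was lost without L4440 replicate 1 (-0.21, with 1 control library left). The other, toe-1, had 63.0, 59.6 and 62.3 CPM in lin-32 RNAi, against 69.8 and 71.6 CPM in L4440 (-0.20 ± 0.041, edgeR adjusted p = 0.047), a call lost with DESeq2, with limma-voom, with library size alone and without 7 of the 8 libraries in turn.

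Most germline markers also had values below those of L4440. Of 12 germline genes 11 had log2 fold changes below 0 in both treatments over L4440, against 50.3% and 49.4% of all genes tested. The medians were -0.049 for hlh-2 RNAi and -0.051 for lin-32 RNAi, 0 passed, and both comparisons use the same L4440 libraries. The 12 genes summed to 7942 to 8032 CPM in libraries labelled hlh-2 RNAi and 7630 to 8111 CPM in the lin-32 RNAi-labelled ones, against 8204 to 8302 CPM in L4440 libraries, so both treated groups lay below L4440. The largest part of that sum was cbd-1, averaging 2770 CPM in hlh-2 RNAi and 2712 CPM in lin-32 RNAi, against 2883 CPM in L4440. The part of the germline genes in the ribosomal protein values was not tested. The 8 intestinal genes had medians of 0.016 for hlh-2 RNAi (4 below 0) and 0.064 for lin-32 RNAi over L4440 (2 below 0), and 0 passed. Their summed level was 1418 to 1471 CPM in hlh-2 RNAi and 1493 to 1646 CPM in lin-32 RNAi, against 1615 to 1698 CPM in L4440. Most of that sum was the protease gene asp-1, with 957.8, 952.9 and 1006 CPM in hlh-2 RNAi and 988.6, 1035 and 1150 CPM in lin-32 RNAi, against 1232 and 1170 CPM in L4440 (log2 fold change -0.30 ± 0.057 for hlh-2 RNAi, edgeR adjusted p = 0.066). The 7 others summed to 465 to 482 CPM in hlh-2 RNAi and 457.5 to 516 CPM in lin-32 RNAi, against 445 to 466.5 CPM in L4440. asp-1 was singled out after its values were seen.

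Of 8 body wall muscle genes 1 passed, myo-3 in hlh-2 RNAi over lin-32 RNAi, where 0.406% of all genes tested did. There 6 of the 8 were below 0. The myosin heavy chain gene myo-3 had 39.56, 40.98 and 38.59 CPM in hlh-2 RNAi, against 34.1, 33.8 and 33.1 CPM in lin-32 RNAi (log2 fold change 0.24 ± 0.043, edgeR adjusted p = 0.031). Leaving out each of the 8 libraries in turn ended that call every time, with adjusted p of up to 0.163. The 8 summed to 1352 to 1471 CPM in hlh-2 RNAi and 1443 to 1505 CPM in lin-32 RNAi, against 1434 to 1442 CPM in L4440. Neuronal genes, 9 in number, summed to 288 to 295 CPM in hlh-2 RNAi and 290 to 293 CPM in lin-32 RNAi, against 282 to 285 CPM in L4440. Both treated groups lay above L4440 in that sum, but most of it was snb-1, whose groups overlapped. snb-1 had 180.4, 186.4 and 180.4 CPM in hlh-2 RNAi and 185.6, 190.1 and 181.1 CPM in lin-32 RNAi, against 175.3 and 182.1 CPM in L4440. The median log2 fold change of the 9 over L4440 was 0.040 for hlh-2 RNAi (3 below 0) and 0.054 for lin-32 RNAi (4 below 0), and 0 passed. The 8 hypodermal genes summed to 246 to 263 CPM in hlh-2 RNAi and 257 to 270 CPM in lin-32 RNAi, against 258 to 270 CPM in L4440. Most of that sum was lin-26 and col-19. The median log2 fold change of the 8 over L4440 was -0.13 for hlh-2 RNAi (7 below 0) and -0.64 for lin-32 RNAi (6 below 0). In lin-32 RNAi 4 of them were lower at an unadjusted p under 0.05, against 6.82% of all genes tested. These 4 (bli-1, col-10, dpy-13 and rol-6) had at most 2.06 CPM in any library. Within that list the cuticle collagens dpy-13 (log2 fold change -3.33 ± 0.55, edgeR adjusted p = 0.016) and rol-6 (-3.75 ± 0.59, edgeR adjusted p = 0.012) fell in lin-32 RNAi over L4440, from few reads, and each call was lost without either L4440 library. In that comparison 0.743% of all genes tested passed. For hlh-2 RNAi over lin-32 RNAi, rol-6 also passed (3.10 ± 0.58, edgeR adjusted p = 0.040), a call lost without 7 of the 8 libraries in turn. The 8 sperm genes summed to 3.20 to 4.59 CPM in hlh-2 RNAi and 3.15 to 4.53 CPM in lin-32 RNAi, against 3.59 to 4.72 CPM in L4440. No marker was at 0 in all libraries.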

How the data were processed

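Whole-worm RNA was sequenced in 8 libraries prepared by TruSeq RNA v2, an unstranded kit. The deposited table holds raw read counts per WormBase gene, and per the submitters' processing notes TopHat2 2.1.0, featureCounts 1.4.6-p4 and bcl2fastq 1.8.4 were used with build WBcel235. The sources used here do not give settings for strand or shared reads, or the annotation release, and 0 other columns of samples were present. Symbols matched 43693 of 46748 genes, and positions and lengths came from the Ensembl annotation of WBcel235, release 115.

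Counts were fitted in R 4.3.3 with edgeR 4.0.16 (filterByExpr by group, TMM, glmQLFit and glmQLFTest, group as the only term, all 8 libraries), with Benjamini-Hochberg adjustment over 14272 genes and a threshold of 0.05. The common dispersion was 0.00270. DESeq2 1.42.0 and limma-voom (limma 3.58.1) were alternatives. The steps were tested on simulated data. Between replicates of a group the chi-square of counts over its degrees of freedom was 5.58 to 16, above sampling noise.

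Members and the 12 lists were chosen with earlier results of these data known, so no test over a list was made. Named members are the stalk genes, those past the threshold, the 5 with the smallest p and 3 with the largest change each way per comparison, numbered pairs, and the highest and lowest per length. Deviations of the treated libraries of equal number correlated at 0.265, 0.194 and 0.191 across genes, so the numbers were taken to pair these 6 libraries. That comes from the data, since the labels name no shared day or batch. Promoter sequences were not used here.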

Additional observations from a re-analysis of the deposited data

Results flagged for a closer look

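The stalk gene rla-1 differed between the treatments under the same contrast. Its log2 fold change over L4440 was -0.12 for libraries labelled hlh-2 RNAi and 0.63 for those labelled lin-32 RNAi, and the test of the difference itself, hlh-2 RNAi over lin-32 RNAi, gave -0.75 ± 0.096 (edgeR adjusted p = 0.0042), with all 3 hlh-2 RNAi libraries below all 3 lin-32 RNAi libraries. Groups of 3 libraries or fewer were not searched for libraries that stand apart.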

How the results depend on the processing

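The median of the members stayed below 0 in all 3 comparisons under every alternative run. Counts near the threshold moved most, and their cause was not tested. Members past the adjusted threshold in hlh-2 RNAi over L4440 (0) were 4 with DESeq2, 8 with no filter and 0 without any single library. In lin-32 RNAi over L4440 (1) they were 3 with DESeq2, 7 with no filter and 0 to 1 when a library was left out. In hlh-2 RNAi over lin-32 RNAi (1) they were 4 with no filter and 1 when a library was left out. Members at an unadjusted p under 0.05 were 10 to 41 without single libraries in hlh-2 RNAi over L4440 (38). In lin-32 RNAi over L4440 (16) they were 28 with no filter and 5 to 22 without single libraries, and in hlh-2 RNAi over lin-32 RNAi (17) they were 9 with library size alone and 6 to 15 without single libraries. The median of the last comparison (-0.047) ran from -0.058 to -0.017 without single libraries. All genes called in hlh-2 RNAi over L4440 (29) were 47 with DESeq2, 223 with no filter and 3 to 31 without single libraries. In lin-32 RNAi over L4440 (106) they were 178, 610 and 17 to 157, and in hlh-2 RNAi over lin-32 RNAi (58) they were 91, 342 and 25 to 93 under the same changes.

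With the replicate number as a block in all 8 libraries, the members called were 0 in hlh-2 RNAi over L4440, 5 (rla-1, rla-2, rps-29, rps-7 and rpl-6) in lin-32 RNAi over L4440 (27 at an unadjusted p under 0.05) and 2 (rla-1 and rla-2) in hlh-2 RNAi over lin-32 RNAi, and all genes called were 72, 350 and 132. The block in the 6 treated libraries alone, chosen after seeing the data, called 4 members and 386 genes. L4440 libraries did not pair by number (correlations of -0.066 and -0.165 with hlh-2 RNAi, -0.0368 and -0.122 with lin-32 RNAi), so block values over L4440 rest on a shared number only.

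Signs of values near 0 turned in 26 cases. For hlh-2 RNAi over L4440, rpl-38 became 0.0012 with DESeq2, 0.00016 with RLE size factors, 0.00012 with TMM without the members, 0.00049 with a filter of 1 CPM in 2 libraries, 0.026 with library size alone, 0.0028 with no filter and 0.036 with the block. In the same comparison rps-2 became 0.022 with library size alone, and rla-2 became 0.0074 with the block. Without single libraries the ranges there were -0.050 to 0.035 for rpl-38, -0.12 to 0.12 for rps-2, -0.028 to 0.048 for rps-20, -0.098 to 0.018 for rla-0 and -0.31 to 0.095 for rla-1. For lin-32 RNAi over L4440, the range for rla-0 was -0.036 to 0.079. For hlh-2 RNAi over lin-32 RNAi, the ranges were -0.0010 to 0.059 for rpl-24.2, -0.029 to 0.076 for rpl-41.2 and -0.025 to 0.069 for rps-7. Depth limits rpl-42, dpy-13 and rol-6, which have few reads.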
